A study of Mus musculus with 6 samples.

Results

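The immunoglobulin variable (V) segments described here are the rows of a mouse oviduct RNA-seq table whose gene symbol starts with Ighv (heavy chain), Igkv (kappa light chain) or Iglv (lambda light chain) and whose value was above 0 in at least 2 of the 6 libraries. By this rule 220 of the 346 V rows of the table were kept, out of 55276 rows in all: 116 of 183 Ighv rows, 101 of 160 Igkv rows and 3 of 3 Iglv rows. RNA came from whole oviducts of C57BL/6 mice on day 2 of pregnancy, counted from the vaginal plug, and was sequenced on a BGISEQ-500. Cdc42f/f mice carry loxP sites around an exon of Cdc42 on both alleles and have no Cre (n = 3 libraries), whereas PgrCreCdc42f/f littermates carry the same alleles and 1 copy of a Cre recombinase expressed from the progesterone receptor gene (n = 3 libraries). The study located the loss of CDC42 protein in these mice to the epithelium of the isthmus, so each library also holds RNA of cells without recombination. The libraries are labelled as biological replicates, and 3 mice of each genotype were used. In the text they are called Cdc42f/f libraries 1, 2 and 3 and PgrCreCdc42f/f libraries 1, 2 and 3, and a series of values follows that order.

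A B cell builds its antibody genes by joining a V segment to a J segment, with a D segment between them in the heavy chain, and the joined exon is spliced to a constant region exon such as Igha of IgA or Igkc of the kappa chain. A single B cell and its daughters normally use a single heavy and a single light V segment, and a plasma cell, the antibody-secreting descendant of a B cell, fills much of its RNA with those 2 transcripts. In mucosal tissue such as the female reproductive tract, plasma cells commonly make IgA, whose polymers are held together by the J chain, the product of Jchain.

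The values are RPKM, the reads of a gene per kilobase of its exons scaled to the depth of the library. Multiplied by the exon length of the gene they gave whole reads for all 220 segments, and over the table the recovered reads came to between 42.36 M and 46.4 M (M, 10 to the power of 6 reads) per library. A single read on a segment of 350 bases was worth between 0.0592 and 0.0673 RPKM, so a level of 0.1 RPKM rests on a couple of reads, and the 220 segments together held between 24791 and 41623 reads per library. Cdc42 itself was at 127.6, 130.2 and 142.4 RPKM in Cdc42f/f, against 113.6, 125.5 and 120.9 RPKM in PgrCreCdc42f/f libraries, and limma did not call this difference (log2 difference -0.15, SE 0.084, adjusted p = 0.36). This value covers all exons of the gene, not only the exon between the loxP sites. By RT-qPCR and western blot the study found less Cdc42 mRNA and protein in PgrCreCdc42f/f oviducts. Ovgp1, which encodes the glycoprotein of oviduct fluid, was between 1574 and 3849 RPKM in all 6 libraries.

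Sequences are shown first for the segments on which the results turn. Ighv3-6 was the most abundant heavy chain segment by mean level, and Ighv3-2 of the same family was the single most abundant V segment of any library although GENCODE M21 annotates it as a pseudogene. Both lie on the minus strand of chromosome 12 of GRCm38, where Ighv3-6 spans chr12:114288152-114288582 and Ighv3-2 chr12:114033803-114034233. The lines give the last 290 bases of Ighv3-6 (chr12:114288152-114288441) and the last 289 bases of Ighv3-2 (chr12:114033803-114034091) within the V exon, 5′ to 3′, with capitals for bases that differ between them. A global alignment paired 273 bases as identical, with 13 mismatches and 7 bases unpaired over both sequences. Read from its first ATG, the annotated transcript of Ighv3-2 (349 bases) held 2 in-frame stop codons and that of Ighv3-6 (350 bases) held 0.
Ighv3-6: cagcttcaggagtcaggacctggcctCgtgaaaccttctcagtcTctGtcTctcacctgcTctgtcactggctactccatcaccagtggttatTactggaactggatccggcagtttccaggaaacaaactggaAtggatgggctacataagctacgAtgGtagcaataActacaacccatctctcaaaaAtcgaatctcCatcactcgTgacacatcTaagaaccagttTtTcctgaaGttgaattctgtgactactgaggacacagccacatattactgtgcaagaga
Ighv3-2: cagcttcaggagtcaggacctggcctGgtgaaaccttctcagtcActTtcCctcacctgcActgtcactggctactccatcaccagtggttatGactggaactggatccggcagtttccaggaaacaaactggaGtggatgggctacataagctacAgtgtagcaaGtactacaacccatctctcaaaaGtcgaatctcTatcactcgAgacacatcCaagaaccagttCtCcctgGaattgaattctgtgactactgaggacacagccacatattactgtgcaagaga

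Igkv1-110 and Igkv1-117 are shown because both were among the 5 most abundant kappa segments and reads of one could be placed on the other. They lie on the plus strand of chromosome 6, and the lines give the last 290 bases of Igkv1-110 (chr6:68270978-68271267) and of Igkv1-117 (chr6:68121538-68121827), with capitals for bases that differ between them. These stretches differed at 9 bases and were 96.9% identical.
Igkv1-110: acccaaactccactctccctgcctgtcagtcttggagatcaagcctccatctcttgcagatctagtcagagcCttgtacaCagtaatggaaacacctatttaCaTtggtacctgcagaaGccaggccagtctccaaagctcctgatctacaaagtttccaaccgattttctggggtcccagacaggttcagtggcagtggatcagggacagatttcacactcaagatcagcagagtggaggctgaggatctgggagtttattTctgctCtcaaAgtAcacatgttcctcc
Igkv1-117: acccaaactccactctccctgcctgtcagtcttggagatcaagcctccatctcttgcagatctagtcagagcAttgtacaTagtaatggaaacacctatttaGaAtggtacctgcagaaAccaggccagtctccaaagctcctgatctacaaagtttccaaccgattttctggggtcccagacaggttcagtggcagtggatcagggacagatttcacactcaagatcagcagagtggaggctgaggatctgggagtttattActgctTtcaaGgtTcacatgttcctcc

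Ighv12-3 and Igkv15-103 are shown because they were the members that passed the test between genotypes, given further below. The lines give the last 290 bases of Ighv12-3 (chr12:114366521-114366810, minus strand) and of Igkv15-103 (chr6:68437636-68437925, plus strand), with the last in-frame cysteine codon in capitals. That codon stands near the end of the V segment, where the joined exon goes on into the antigen-binding loop formed at the junction.
Ighv12-3: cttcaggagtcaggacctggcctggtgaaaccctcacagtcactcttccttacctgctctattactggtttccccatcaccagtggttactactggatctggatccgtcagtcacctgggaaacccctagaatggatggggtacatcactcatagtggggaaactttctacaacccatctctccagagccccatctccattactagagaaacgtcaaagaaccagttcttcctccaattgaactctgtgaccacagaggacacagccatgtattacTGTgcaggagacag
Igkv15-103: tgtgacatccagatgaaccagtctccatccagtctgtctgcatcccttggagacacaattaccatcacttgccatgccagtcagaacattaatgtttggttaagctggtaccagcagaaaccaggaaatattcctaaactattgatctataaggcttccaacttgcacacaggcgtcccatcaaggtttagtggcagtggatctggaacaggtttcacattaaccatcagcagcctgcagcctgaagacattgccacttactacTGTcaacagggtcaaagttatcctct

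Between 181 and 200 of the 220 segments were seen, that is above 0, in a library. The numbers were 183, 190 and 199 in Cdc42f/f and 200, 189 and 181 in PgrCreCdc42f/f libraries, so the groups overlapped and the lowest and the highest number were both found in PgrCreCdc42f/f. For heavy chain segments the numbers were 95, 100 and 104 against 108, 98 and 92, and for kappa segments 85, 87 and 92 against 89, 88 and 86. With at least 3 reads required, 162, 164 and 186 segments were seen in Cdc42f/f and 189, 171 and 168 in PgrCreCdc42f/f libraries. All 3 lambda segments were seen in every library.

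The rule itself set how the rarest members look. At its edge, 18 rows were above 0 in exactly 2 libraries and reached at most 2.24 RPKM, and 17 rows outside were above 0 in exactly 1 library and reached at most 0.569 RPKM. A further 109 V rows were listed at 0 in all 6 libraries, and 150 members were above 0 in all 6. By the annotation, 200 members were functional V segments and 20 were pseudogenes (14 Ighv and 6 Igkv), whereas of the 126 V rows outside, 16 were annotated as functional and 108 as pseudogenes.

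The summed level of all 220 segments was 1541, 1831 and 1740 RPKM in Cdc42f/f and 2420, 2442 and 1922 RPKM in PgrCreCdc42f/f libraries. Every PgrCreCdc42f/f library was thus above every Cdc42f/f library, with means of 2261 ± 294 against 1704 ± 148 RPKM (SD, n = 3 each) and a ratio of 1.33. No test is given for this sum, because the members were chosen with results of these data known. Of the 17584 genes compared by limma, 13.5% were apart in this direction. In whole oviducts a larger number of plasma cells and more antibody RNA per cell cannot be told apart. The part of read assignment, taken up further below, was not tested.

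The heavy chain V sums were apart on their own, and those of the light chains were not. The sum of the heavy constant genes, given further below, overlapped between genotypes. The summed heavy chain level was 629, 435.6 and 571.8 RPKM in Cdc42f/f and 808.3, 899.4 and 828.6 RPKM in PgrCreCdc42f/f libraries, a ratio of means of 1.55 with no overlap (545.5 ± 99.3 against 845.4 ± 47.8 RPKM, SD, n = 3 each). The kappa sum was 873.8, 1372 and 1155 RPKM against 1558, 1497 and 1061 RPKM, a ratio of 1.21 with overlapping groups. The lambda sum was 37.8, 23.2 and 13.1 RPKM against 53.1, 45.5 and 32.3 RPKM, a ratio of 1.77, and Cdc42f/f library 1 stood above PgrCreCdc42f/f library 3. Lambda made up between 1.12% and 4.15% of light chain V RPKM.

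**Figure D1:**
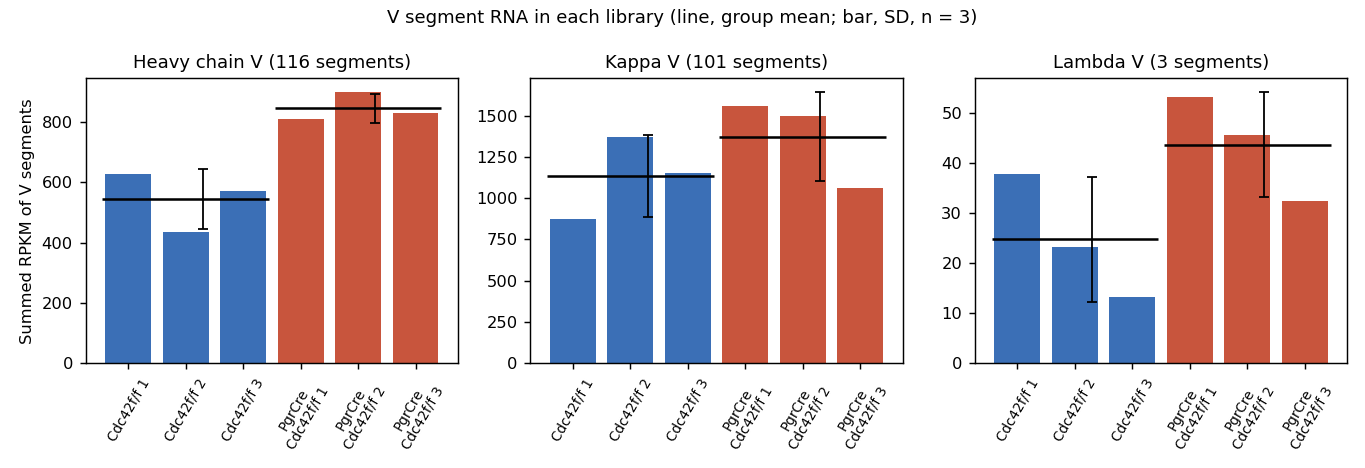
Summed RPKM of heavy chain, kappa and lambda V segments (y axes, linear from 0, each panel with its own scale) in the 6 libraries (x axis, bars); black lines are group means and error bars their SD (n = 3). The heavy chain bars of PgrCreCdc42f/f, at 808.3 to 899.4 RPKM, all stand above those of Cdc42f/f, at 435.6 to 629 RPKM, whereas the kappa and lambda bars of the genotypes overlap.

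No library was dominated by a single segment. In the heavy chain the most abundant segment held 9.63%, 7.48% and 8.93% of Ighv RPKM in Cdc42f/f and 5.02%, 14.7% and 12.7% in PgrCreCdc42f/f libraries, so that the lowest and the highest share were both found in PgrCreCdc42f/f. It was Ighv3-6 in 4 libraries, Ighv2-2 in Cdc42f/f library 2 and Ighv3-2 in PgrCreCdc42f/f library 2. The 95% Wilson interval of the corresponding read share reached between 0.357 and 0.594 percentage points to either side, for counting error only. It takes each read as separate and is too narrow where reads come in pairs from the same fragment.

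In the kappa chain the most abundant segment held 9.24%, 5.56% and 6.65% of Igkv RPKM in Cdc42f/f and 6.69%, 6.93% and 8.44% in PgrCreCdc42f/f libraries, with Wilson half-widths between 0.295 and 0.468 points for the read share. It was Igkv10-96 in 3 libraries, Igkv1-110 in Cdc42f/f library 2 and PgrCreCdc42f/f library 3, and Igkv5-43 in PgrCreCdc42f/f library 2. Of the lambda chain, with its 3 segments, Iglv1 held between 44.1% and 74.7%.

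The number of segments that together reached 50% of the RPKM was 13, 11 and 14 against 15, 8 and 13 for the heavy chain and 11, 13 and 15 against 14, 9 and 13 for the kappa chain. The effective number of segments, which is the number of equally abundant segments that would give the same concentration (the inverse of the summed squared shares), was 31.6, 28.9 and 35.4 against 41.7, 19.9 and 28.3 for the heavy chain. For the kappa chain it was 28.0, 36.2 and 38.7 against 37.4, 26.2 and 32.0. PgrCreCdc42f/f library 2 was the most concentrated in both chains, PgrCreCdc42f/f library 1 the least concentrated in the heavy chain, and the genotypes overlapped in each measure.

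**Figure D2:**
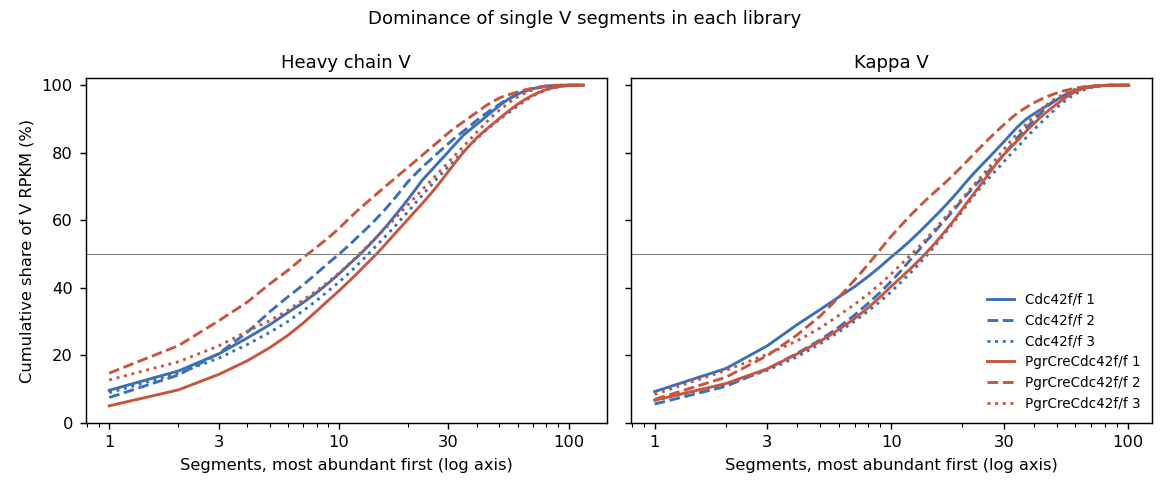
Cumulative share of V RPKM (y axis, percent) against the number of segments counted from the most abundant (x axis, log scale) for heavy chain and kappa segments; each line is a library, with colour for genotype and dash for library number, and the grey line marks 50%. In the heavy chain PgrCreCdc42f/f library 2 crosses 50% at 8 segments and PgrCreCdc42f/f library 1 at 15, with the other libraries between them.

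Among heavy chain segments, Ighv3-6 was at 60.6, 9.01 and 51.0 RPKM in Cdc42f/f, against 40.6, 48.0 and 105.0 RPKM in PgrCreCdc42f/f libraries. Cdc42f/f library 2 was low for it and PgrCreCdc42f/f library 3 high. Ighv3-2, with the stop codons given above, was at 0.198, 29.1 and 18.5 RPKM against 28.4, 132.2 and 0.122 RPKM. It thus ran from 1960 reads in PgrCreCdc42f/f library 2 to 3 reads in Cdc42f/f library 1 and 2 reads in PgrCreCdc42f/f library 3. A near-zero level occurred in 1 library of each genotype, and the highest level in Cdc42f/f was 470 reads.

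The next 3 heavy chain segments by mean level varied less than Ighv3-2. Ighv8-12 was at 12.5, 27.6 and 18.2 RPKM against 32.9, 73.1 and 25.6 RPKM. Ighv6-3 was at 16.8, 6.01 and 17.3 RPKM against 29.8, 66.5 and 16.7 RPKM. Both were highest in PgrCreCdc42f/f library 2, and both overlapped between genotypes. Ighv2-2 was at 11.3, 32.6 and 25.5 RPKM against 25.7, 10.6 and 44.6 RPKM, with the lowest and the highest value both in PgrCreCdc42f/f.

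Kappa segments were steadier. Igkv10-96 was at 80.8, 71.7 and 76.8 RPKM in Cdc42f/f, against 104.2, 65.9 and 75.2 RPKM in PgrCreCdc42f/f libraries, and no other kappa segment was among the 10 most abundant of all 6 libraries. Igkv1-110 was at 59.6, 76.3 and 54.9 RPKM against 41.2, 58.2 and 89.6 RPKM. Its close relative Igkv1-117 was at 10.8, 31.6 and 40.6 RPKM against 50.3, 77.4 and 51.0 RPKM, with the genotypes apart but the difference not called by limma (log2 difference 1.28, SE 0.49, adjusted p = 0.21). Igkv5-43 was at 32.8, 16.9 and 32.8 RPKM against 76.7, 103.8 and 40.0 RPKM, also apart and also not called (log2 difference 1.37, SE 0.41, limma adjusted p = 0.133). Igkv12-44 ranged from 14.1 to 42.9 RPKM in Cdc42f/f and from 34.6 to 98.1 RPKM in PgrCreCdc42f/f libraries and overlapped.

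Among the lambda segments Iglv1 was at 27.2, 13.9 and 5.78 RPKM in Cdc42f/f, against 35.0, 34.0 and 23.2 RPKM in PgrCreCdc42f/f libraries. Iglc1, the constant region gene with which Iglv1 is usually joined in mice, was at 33.1, 12.1 and 4.66 RPKM against 42.1, 28.2 and 26.4 RPKM, and both genes were lowest in Cdc42f/f library 3. Iglv3 was between 4.84 and 7.31 RPKM against 7.17 and 14.6 RPKM, and Iglv2 between 2.01 and 5.28 RPKM against 1.92 and 3.56 RPKM. None of the 3 was called by limma, with adjusted p of 0.258 for Iglv1, 0.195 for Iglv3 and 0.793 for Iglv2.

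Some segments were nearly private to a single library. Ighv1-56 was at 11.1 RPKM (182 reads) in PgrCreCdc42f/f library 1 and at no more than 0.236 RPKM (4 reads) in any other, a ratio of 47.0 to the second highest library. Igkv3-3 was at 11.7 RPKM in Cdc42f/f library 2 and at no more than 0.385 RPKM elsewhere. Igkv5-37 was at 23.0 RPKM and Ighv1-62-2 at 21.9 RPKM in PgrCreCdc42f/f library 2, against at most 2.31 and 2.82 RPKM elsewhere. For Ighv1-62-2 every PgrCreCdc42f/f library was also above every Cdc42f/f library, with values given further below. Ighv1-39 was at 8.88 RPKM in PgrCreCdc42f/f library 3 and at most 1.77 RPKM elsewhere. These 5 were named for the largest ratio of the highest to the second highest library among members reaching 5 RPKM, so this pattern is how they were chosen.

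**Figure D3:**
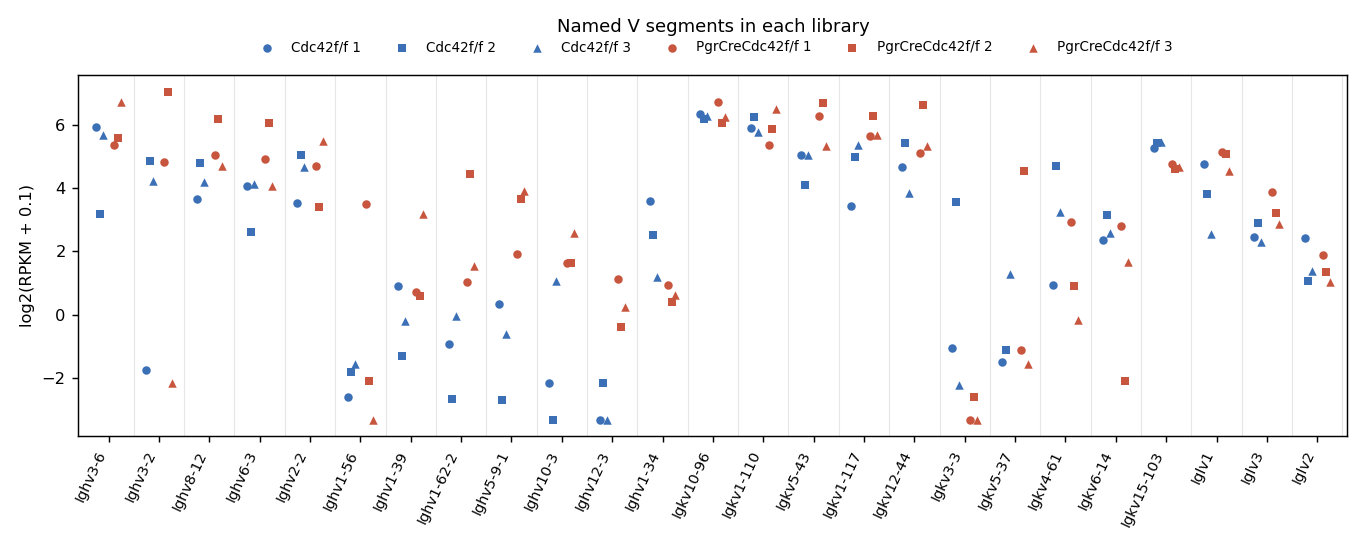
Level of each named V segment as log2(RPKM + 0.1) (y axis) in the 6 libraries; colour marks the genotype and the symbol shape the library number. Igkv10-96 and Igkv15-103 lie in tight groups, whereas Ighv3-2 runs from 132.2 RPKM in PgrCreCdc42f/f library 2 to 0.122 RPKM in PgrCreCdc42f/f library 3.

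Near-absence of a segment that was abundant elsewhere was mostly a heavy chain pattern. Of the 64 Ighv members with at least 100 reads in some library, 16 had no more than 3 reads in another, while of the 64 Igkv members with at least 100 reads in some library, 5 did (these limits were set after the values were seen). For the heavy chain such segments numbered 5, 12 and 0 in Cdc42f/f and 0, 1 and 3 in PgrCreCdc42f/f libraries. Cdc42f/f library 2, which also had the lowest heavy chain sum, held most of them. For the kappa chain the numbers were 1, 1 and 1 against 1, 3 and 1.

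Segments present at 20 or more reads in all 6 libraries numbered 31 of 116 in the heavy chain and 50 of 101 in the kappa chain. The 31 heavy chain segments held between 60.9% and 68.4% of Ighv RPKM in each library, and the 50 kappa segments held between 90.3% and 95.3% of Igkv RPKM. Among the 10 most abundant segments of each library, 28 different heavy chain segments appeared, of which 0 were shared by all 6 libraries and 12 appeared in a single library. For the kappa chain 27 segments appeared, of which 10 were in a single library.

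The order of segments was described by Spearman's rho between pairs of libraries, which share the annotation and the length of each segment. Over the 101 kappa segments rho was between 0.76 and 0.89, and over the 116 heavy chain segments between 0.37 and 0.80, lowest for Cdc42f/f library 2 with PgrCreCdc42f/f library 3. Pairs of the same genotype had a median rho of 0.70 in the heavy chain and 0.81 in the kappa chain, and pairs across genotypes 0.71 and 0.81. The segment order was therefore about as alike across genotypes as within them in this description, which has no test.

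As a group, the 20 segments annotated as pseudogenes were lowest in the same libraries as Ighv3-2. Their summed level was 0.58, 41.1 and 26.5 RPKM in Cdc42f/f and 36.95, 136.3 and 1.03 RPKM in PgrCreCdc42f/f libraries. Without Ighv3-2 it was 0.382, 12 and 7.99 RPKM against 8.58, 4.06 and 0.907 RPKM, again lowest in Cdc42f/f library 1 and PgrCreCdc42f/f library 3. Of these 20 segments 7 reached 1 RPKM in some library, and the second highest after Ighv3-2 was Ighv4-2 with 3.72 RPKM. All 6 libraries carry the strain label C57BL/6, but whether they share 1 haplotype of the heavy chain locus was not tested. The reads of every library were assigned to the gene models of the C57BL/6J assembly, so in a library with another haplotype an Ighv value or near-absence could not be read as the use of that segment.

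By family, the 59 Ighv1 members, the largest heavy chain family, held between 31.4% and 52.5% of Ighv RPKM. They summed to 330.5, 136.7 and 244.8 RPKM in Cdc42f/f and to 338.9, 287.5 and 333.5 RPKM in PgrCreCdc42f/f libraries. The 8 Ighv3 members held between 10.6% and 22.7%, highest in PgrCreCdc42f/f library 2 where Ighv3-2 led. In the kappa chain the 29 Igkv4 members held between 13.7% and 25.5%, and the 7 Igkv1 members between 8.58% and 14.8%.

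Position along the locus was described by dividing the members of a chain, in their order on the chromosome, into 3 sets of near-equal size. All 116 Ighv members lie on the minus strand of chromosome 12, and the 39 nearest the constant region genes, from Ighv5-1 to Ighv3-6, held between 35.5% and 45.6% of Ighv RPKM. The middle 38 held between 21.8% and 33.3%, and the 39 farthest away between 25.6% and 33.5%. The ratio of PgrCreCdc42f/f to Cdc42f/f means was 1.61, 1.51 and 1.51 from the nearest to the farthest set, so each set had the higher mean in PgrCreCdc42f/f. The nearest and the farthest set were apart between genotypes. The middle set overlapped, at 209.3, 95.1 and 141.6 RPKM in Cdc42f/f against 209.2, 227.2 and 238.5 RPKM in PgrCreCdc42f/f libraries. The Igkv members on chromosome 6 face both ways, 37 on the plus and 64 on the minus strand, and the 34 farthest from Igkc held between 38.2% and 49.99% of Igkv RPKM.

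The V sums were set beside the constant region genes to which the segments are spliced. Kappa V over Igkc was 0.613, 0.557 and 0.539 in Cdc42f/f and 0.582, 0.577 and 0.610 in PgrCreCdc42f/f libraries, so the kappa V sum moved with Igkc within a range of 1.14-fold. The sum of the 8 heavy constant genes was 391.7, 550.9 and 472 RPKM in Cdc42f/f and 589.9, 726.7 and 429.9 RPKM in PgrCreCdc42f/f libraries, with overlap. Heavy V over this sum was 1.61, 0.791 and 1.21 against 1.37, 1.24 and 1.93, a range of 2.44-fold in which the genotypes overlapped. The heavy chain ratio was lowest in Cdc42f/f library 2 and highest in PgrCreCdc42f/f library 3. Relative to Jchain, the sum of all V segments was 22.4, 19.8 and 20.6 in Cdc42f/f and 24.3, 24 and 23.1 in PgrCreCdc42f/f libraries, again with the groups apart and with no test.

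**Figure D4:**
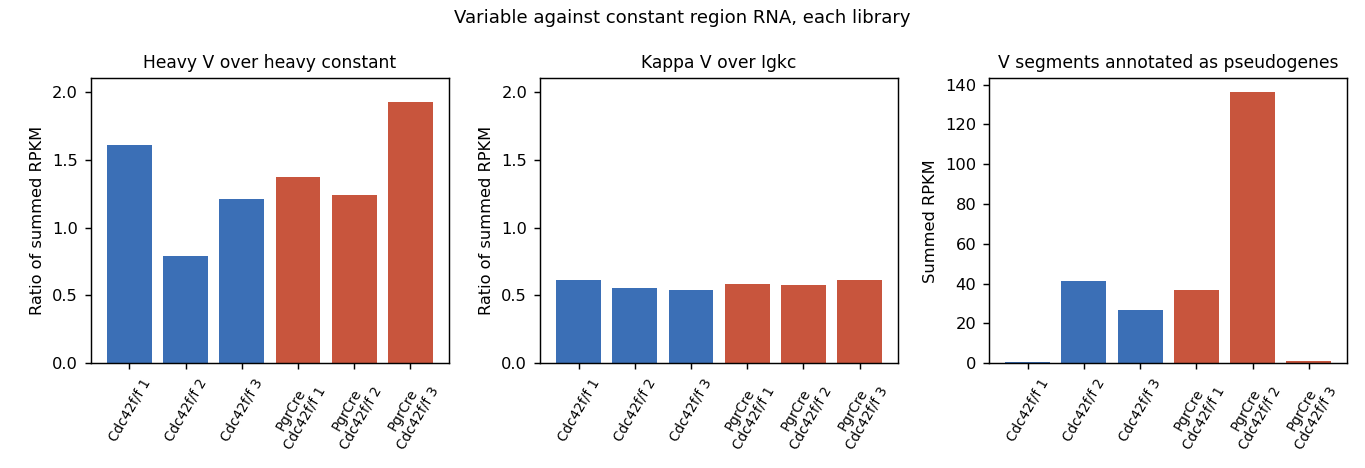
Heavy V RPKM over the sum of heavy constant genes, kappa V RPKM over Igkc, and the summed RPKM of V segments annotated as pseudogenes (y axes, linear from 0) in each library (bars). The kappa ratio stays between 0.539 and 0.613, the heavy ratio runs from 0.791 to 1.93, and the pseudogene-annotated sum runs from 0.58 to 136.3 RPKM.

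Of the constant region genes themselves, 10 of 12 passed the filter for testing, 9 had a positive and 1 a negative difference (median log2 difference 0.27, against 0.01 over all tested genes), and none was called by limma, by limma voom on the recovered reads or at an unadjusted p below 0.05 (0 of 10 each). Igkc was at 1425, 2462 and 2144 RPKM in Cdc42f/f, against 2676, 2597 and 1739 RPKM in PgrCreCdc42f/f libraries (limma adjusted p = 0.69), with overlap. Igha was at 192.6, 407.7 and 308.45 RPKM against 403.2, 314.0 and 332.9 RPKM (limma adjusted p = 0.624), and held between 43.2% and 77.4% of heavy constant RPKM. The Ighg genes together held between 18.5% and 52.5%, and Ighm, of IgM, between 2.44% and 4.2%. Ighg2c, of IgG2c, was at 68.5, 21.7 and 70.7 RPKM against 87.9, 232.2 and 31.3 RPKM (limma adjusted p = 0.576), and its highest value was in the same library as that of Ighv3-2.

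Each segment was compared between genotypes with limma on log2(RPKM + 0.1), fitted over the 17584 genes that reached 0.5 RPKM in 3 or more libraries. Of the 220 members 163 passed this filter (84 Ighv, 76 Igkv and 3 Iglv). At an adjusted p below 0.05, 1 member was called higher and 1 lower in PgrCreCdc42f/f, that is 0.613% of the tested members each way, against 0.762% of all tested genes called higher and 0.893% called lower. The count of calls among the V segments was thus near the background.

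Ighv12-3, the only member of its family in the set, was the segment called higher. It was at 0, 0.122 and 0 RPKM in Cdc42f/f, against 2.06, 0.667 and 1.09 RPKM in PgrCreCdc42f/f libraries (log2 difference 3.26, SE 0.54, limma adjusted p = 0.0469). In reads these were 0, 2 and 0 against 34, 10 and 18. All of these numbers are even, so a pair of reads may stand for 1 fragment. The segment passed the filter only through the PgrCreCdc42f/f libraries, where it was high, and held no more than 0.255% of Ighv RPKM in any library. The call was lost with a pseudocount of 1 or 0.01, with no filter, with no variance trend, and without any 1 of the 6 libraries, with limma adjusted p between 0.0517 and 0.119 in those fits.

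Igkv15-103 was the segment called lower. It was at 38.7, 42.5 and 44.1 RPKM in Cdc42f/f, against 27.1, 24.4 and 25.4 RPKM in PgrCreCdc42f/f libraries (log2 difference -0.70, SE 0.083, limma adjusted p = 0.0223), while the kappa sum had the opposite order of means. Its share of Igkv RPKM was 4.43%, 3.10% and 3.82% in Cdc42f/f and 1.74%, 1.63% and 2.39% in PgrCreCdc42f/f libraries. Its SD within groups, 0.088 on the log2 scale, was the smallest of the 163 tested members, and its nearest relative by sequence, Igkv15-101, was 78.9% identical. The direction was kept in every alternative, but without any 1 of the 3 Cdc42f/f libraries, or without PgrCreCdc42f/f library 2 or 3, the limma adjusted p was between 0.0556 and 0.092.

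**Figure D5:**
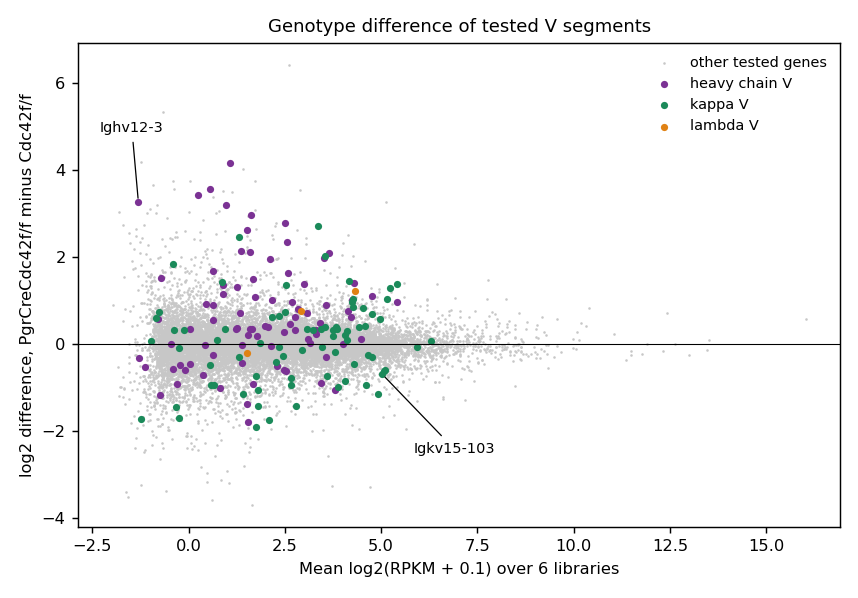
Difference between genotypes on the log2(RPKM + 0.1) scale (y axis, PgrCreCdc42f/f minus Cdc42f/f) against the mean level over 6 libraries (x axis) for the 17584 tested genes (grey) and the 163 tested V segments (coloured by chain). The V segments spread widely around 0, and the labelled points are the 2 that were called, Ighv12-3 at 3.26 and Igkv15-103 at -0.70.

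The remaining tested segments did not pass the test. The counts that follow cover all 163 tested segments, including those called. The difference was positive for 102 of 163 (62.6%, against 50.9% of all tested genes), with a median of 0.33 on the log2 scale against 0.01 over all tested genes. By chain it was positive for 59 of 84 Ighv segments (median 0.43), for 41 of 76 Igkv segments (median 0.08) and for 2 of 3 Iglv segments. At an unadjusted p below 0.05, 14 members were higher (8.59%, against 9.74% of all genes) and 8 lower (4.91%, against 11% of all genes). The groups did not overlap for 12 members that were higher (7.36%, against 13.5%) and 6 that were lower (3.68%, against 13.9%). The number of positive differences depended on single libraries. Without Cdc42f/f library 1 it was 86 of 163 (median 0.11), and without PgrCreCdc42f/f library 1 it was 89 (median 0.11). When any other single library was left out, it was between 101 and 106 (medians between 0.27 and 0.57).

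The spread between libraries of 1 genotype was wide for these genes. The median SD within groups was 1.20 on the log2 scale for the tested members (1.31 for Ighv and 1.05 for Igkv) and 0.185 for all tested genes. The median SE of a member's difference was 0.77, against a median absolute difference of 0.71. The difference was smaller than its own SE for 79 of the 163 tested members.

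The largest positive differences were those of Ighv5-9-1, Ighv1-62-2 and Ighv10-3. Ighv5-9-1 was at 1.17, 0.0523 and 0.552 RPKM in Cdc42f/f, against 3.68, 12.4 and 15.0 RPKM in PgrCreCdc42f/f libraries, with no overlap (log2 difference 4.15, SE 0.87, limma adjusted p = 0.0688). Ighv10-3 was at 0.122, 0 and 1.98 RPKM against 3.01, 2.998 and 5.89 RPKM (log2 difference 3.43, SE 1.07, limma adjusted p = 0.147). Ighv1-62-2 was at 0.426, 0.0571 and 0.877 RPKM against 1.92, 21.9 and 2.82 RPKM, with no overlap (log2 difference 3.55, SE 1.04, limma adjusted p = 0.131). The segment Ighv1-71 matched it with 100% identity over the shorter transcript, so reads of these 2 cannot be told apart with certainty. Ighv1-71 was between 0.59 and 2.31 RPKM.

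The largest negative differences were those of Igkv6-14, Ighv1-34 and Igkv4-61. Ighv1-34 was at 12.04, 5.62 and 2.19 RPKM in Cdc42f/f, against 1.82, 1.21 and 1.43 RPKM in PgrCreCdc42f/f libraries, with no overlap (log2 difference -1.79, SE 0.57, limma adjusted p = 0.151). Igkv6-14 was between 5.04 and 8.71 RPKM in Cdc42f/f, against 6.84, 0.136 and 3.08 RPKM in PgrCreCdc42f/f libraries (log2 difference -1.90, SE 1.17, limma adjusted p = 0.411). Igkv4-61 was at 1.81, 25.8 and 9.44 RPKM against 7.503, 1.79 and 0.782 RPKM (log2 difference -1.74, SE 1.12, limma adjusted p = 0.428). The last pair overlapped between genotypes.

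Reads of many segments may have been placed on a near copy, and how such reads were counted is not given in the sources used here. The median identity of a member to its nearest annotated V segment was 95.4%, and 118 of 220 members had a relative of at least 95% identity. As to placement among near copies, values of single segments are therefore less certain than the sums over a chain. This does not extend to the haplotype of the heavy chain locus, which was not tested and could bear on the heavy chain sum too.

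The label of the set was checked against plasma and B cell genes. Of 15 plasma cell genes 14 were tested, 10 with a positive and 4 with a negative difference (median log2 difference 0.19). None was called by limma or by voom, and 2, Xbp1 and Tnfrsf13b, were higher at an unadjusted p below 0.05. Over all tested genes, 50.9% had a positive difference and 9.74% were higher at that unadjusted p. Jchain was at 68.8, 92.5 and 84.3 RPKM in Cdc42f/f, against 99.5, 101.8 and 83.0 RPKM in PgrCreCdc42f/f libraries (limma adjusted p = 0.426), with overlap. Mzb1, an endoplasmic reticulum protein of antibody-making cells, was between 3.47 and 5.985 RPKM, and Tnfrsf17, the survival receptor of plasma cells, between 0.339 and 0.917 RPKM. The summed plasma cell list ran from 280.7 to 353.9 RPKM in Cdc42f/f and from 326.8 to 372.2 RPKM in PgrCreCdc42f/f libraries. Most of this sum came from Xbp1 (between 96.1 and 170 RPKM), Jchain and Txndc5 (between 51.5 and 64.6 RPKM). In whole oviducts the part of this RNA that came from plasma cells was not tested. The list also includes Derl3, at 62.9 RPKM in Cdc42f/f library 1 and at most 16 RPKM elsewhere.

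Ms4a1, which encodes the B cell surface protein CD20, was between 0.0345 and 0.436 RPKM and highest in PgrCreCdc42f/f library 1. The B cell list had 7 of 15 genes tested, 5 positive and 2 negative (median log2 difference 0.16). Of these, 0 were called by limma or voom. At an unadjusted p below 0.05, 2 (Pax5 and Cd22) were higher, against 9.74% of all tested genes. The summed B cell list ran from 44.9 to 83.2 RPKM in Cdc42f/f and from 35.4 to 58.1 RPKM in PgrCreCdc42f/f libraries, most of it from Vpreb3. Vpreb3 was at 36.6, 71.5 and 41.8 RPKM against 41.9, 22.45 and 28.0 RPKM, and was 1 of the 2 genes with a negative difference. The lower range of the sum in PgrCreCdc42f/f was thus mostly that of Vpreb3 and does not describe the list. Of the genes of V segment joining and class switch, Rag1, Rag2 and Dntt were each at or below 0.127 RPKM in all libraries, and of the 4 genes of that list that were tested, 0 were called by limma or voom and 0 had an unadjusted p below 0.05. T cell receptor V segments, chosen by the same rule, numbered 43 of 178 rows and summed to between 3.79 and 8.44 RPKM.

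Other cell types were read from the remaining lists. Of 8 macrophage genes, 0 were called by limma or voom and 5 were higher at an unadjusted p below 0.05, against 9.74% of all tested genes. All 8 had a positive difference (median log2 difference 0.56), against 50.9% of all tested genes. The sum of these 8 genes ran from 166.5 to 179.4 RPKM in Cdc42f/f and from 220.5 to 365.7 RPKM in PgrCreCdc42f/f libraries, apart in the same direction as the V sum. Most of it came from C1qa, C1qb and C1qc. Each of these, Cd68 and Mrc1 were apart in this direction (13.5% of all tested genes were), whereas Adgre1, Csf1r and Cd163 overlapped. Of 7 lymph node genes 3 were tested, with 0 called by limma or voom and 0 at an unadjusted p below 0.05. Among them Cxcl13, the B cell follicle chemokine, was at 32.4 RPKM in PgrCreCdc42f/f library 1 and at most 3.98 RPKM elsewhere. Of the 7 T cell and 5 red cell genes tested, 0 were called by limma or voom and 0 had an unadjusted p below 0.05. Adipoq, the 1 fat cell gene tested, was between 0.633 and 1.47 RPKM in Cdc42f/f and between 0.0619 and 0.205 RPKM in PgrCreCdc42f/f libraries and was not called by limma (adjusted p = 0.0542) but was by voom. The part of these cells in the V segment levels was not tested.

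Of 8 tested genes for the recruitment and survival of IgA cells 1 was called, as lower. Of all tested genes, 0.893% were called lower and 0.762% higher. Cxcr4, the receptor through which plasma cells respond to CXCL12 and which other cell types also carry, was at 16.1, 17.6 and 22.1 RPKM in Cdc42f/f, against 6.07, 4.77 and 3.26 RPKM in PgrCreCdc42f/f libraries (log2 difference -1.99, SE 0.24, limma adjusted p = 0.0223). Every PgrCreCdc42f/f library was below every Cdc42f/f library, the opposite order to the V sum. Without any 1 of the Cdc42f/f libraries, or without PgrCreCdc42f/f library 2, its limma adjusted p was between 0.0601 and 0.0901. Ccl28, a mucosal chemokine for IgA cells, was at 13.9, 11.4 and 17.7 RPKM against 15.9, 32.9 and 29.9 RPKM and was not called (log2 difference 0.82, SE 0.30, limma adjusted p = 0.194). Of the other 6 tested genes of the list 3 had a positive and 3 a negative difference.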

How the data were processed

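The authors deposited 1 table of RPKM values for 6 whole-oviduct libraries. The submitters' processing notes name HISAT2, edgeR and the build GRCm38 (mm10), the study's methods name Tophat2, and the handling of strand and of reads with several matches is not given in the sources used here. Of 35358 expressed rows with 1 gene of their symbol in GENCODE M21, 98.77% resolved into whole reads throughout (tolerance 0.01), and 64.86% of read numbers from 1 to 20 were even. Reads may thus not be separate fragments. The intervals take them as separate, so they may be too narrow, and they cover counting error only. All 220 members matched GENCODE M21, the source of coordinates, lengths and sequences. No column of other samples was present (0). Genotypes were compared by limma 3.58.1 (R 4.3.3) fitted to log2(RPKM + 0.1) (variance trend, no covariates, unpaired as in the study), for genes of at least 0.5 RPKM in 3 of 6 libraries, with Benjamini-Hochberg adjustment over all 17584. The test was checked on simulated data. Alternatives were other pseudocounts, filters, scalings, sets of rows, the replicate block, limma voom on recovered reads, and leaving out each library. Named members are the 5 most abundant Ighv and Igkv and all Iglv segments, the top of each library, called members, the 5 with the largest ratio of highest to second library, and the 3 largest differences each way. From the gene lists, the constant region genes, called genes and those of smallest p could be named, and others, such as Mzb1, Ms4a1 and Rag1, were chosen after their values were seen. Some genes of these lists are not reported here. The members and all 10 gene lists were chosen with earlier results of these data known.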

Additional observations from a re-analysis of the deposited data

How the results depend on the processing

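The sum of all V segments kept its direction in all 11 alternatives, with a log2 ratio between 0.34 and 0.51 against 0.41, and the median share of the top segment stayed within 1 SD of the libraries in its 4 alternatives (8.93% to 9.78% against 9.28% for the heavy chain, 6.78% to 6.91% against 6.81% for kappa). The number of V segments called higher was 0 instead of 1 with a pseudocount of 1 or 0.01, with no filter, with a mean of 2 RPKM or more required (which leaves Ighv12-3 untested), with no variance trend and with the replicate block. The replicate block also took the number called lower from 1 to 0, as it did for all genes, of which 3276 had an unadjusted p below 0.05. Same-numbered libraries deviated together only weakly (correlations -0.03, -0.07 and 0.08 over all tested genes), so the numbers were not taken as pairs. Leaving out each library gave between 0 and 1 called higher and between 0 and 1 called lower. Without PgrCreCdc42f/f library 2 the segment called higher was Ighv6-6, and without PgrCreCdc42f/f library 3 the segment called lower was Igkv13-85, both named after their values were seen. Ighv12-3 kept its direction in all 14 alternatives and its call in 3 (median ratio rescaling, quantile normalization and voom), Igkv15-103 kept its direction in all 15 and its call in 9, and Cxcr4 did so in all 15 and in 10. Calls could be limited by the spread between libraries and by 3 libraries per genotype, and the weight of each was not tested.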
